A study of Homo sapiens with 6 samples.

Results

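The genes described here are the inflammatory signalling genes of AGS cells that the deposited table places in at least 1 of 4 KEGG pathways: cytokine-cytokine receptor interaction, NF-kappa B signaling, IL-17 signaling and TNF signaling. They were found from the pathway column of the table, and the genes DDX58, MAP2K6 and CFLAR, which carry one of these pathways, were set aside as belonging to other groups. This left 20 of the 1099 genes of the table: the cytokines CXCL8, CXCL1, IL18, IL32, CSF1 and INHBE, the ligands EDN1 and JAG1, the receptors TNFRSF1B and TNFRSF12A, the kinase SYK, the transcription factors NFKB2, CEBPB, FOSL1, ATF6B and CREB3L2, the secreted or membrane proteins LCN2, MMP1 and MMP14, and the RNA-binding protein SRSF1.

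These pathways carry inflammatory signals from the cell surface to the nucleus. TNF and IL-1 family cytokines bind receptors that release NF-kappa B dimers from their inhibitors, and the dimers then switch on chemokines, cytokines and their own feedback regulators. IL-17 signals in epithelia work largely together with NF-kappa B, through AP-1 and C/EBP factors and by making target mRNAs more stable, and they are known for inducing neutrophil-attracting chemokines, lipocalin and matrix metalloproteinases. Gastric epithelium makes many of these proteins, CXCL8 above all, when it meets Helicobacter pylori.

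AGS is an established human gastric adenocarcinoma line, labelled wild type here, and its cells received vehicle (3 libraries) or saikosaponin-D (SSD, a saponin of Radix Bupleuri; 3 libraries) for 24 h before polyA RNA sequencing. The labels give 10 μM, whereas the methods give a lower dose. The labels' protocol fields name C4-2B cells and a compound code, L14-8. Names of the treated columns hold AGS, part of that code and a 10 without a unit, but not SSD. The dose and the record of the treatment are thus not settled, and the name SSD follows the sample titles. The methods speak of independent experiments in general, but nothing says of these libraries that they came from separate cultures, and p-values then measure only the spread between these 6 libraries. Of 24 marker names of epithelial, leukocyte, fibroblast, endothelial and prostate cells, the table holds COL1A1 alone, at 10.0 to 15.8 TPM, and the labelled cell type was not checked further.

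The table is a selection on the outcome: the authors' test covered 11289 genes, and the table holds the 1099 with the smallest p. The largest p of the authors' test among them was 0.00535. A gene not called here thus still passed that limit in their test, and lack of a call does not show it to be unchanged. It carries an estimated read count and a TPM (the transcript share of a library, corrected for gene length) for each gene and library. Counts over the table ran from 3084337 to 4640114 per library, which is not library depth, since these genes hold 30.1% to 33.1% of the TPM. Fold changes are of SSD over vehicle and come from edgeR's quasi-likelihood test on the counts, scaled by each library's ratio of counts to TPM, with Benjamini-Hochberg adjustment over the 11289 genes. A gene is called at an adjusted p under 0.05. The spread was estimated from these selected genes alone, so that standard errors and p-values may be too small. In bulk RNA, fewer cells that express a gene and less RNA of it per cell cannot be told apart.

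Among the 20 genes, 6 rose and 5 fell under SSD. LCN2, CSF1, CEBPB, SYK, ATF6B and MMP14 were called higher, and CXCL8, IL32, MMP1, EDN1 and IL18 lower. The other 9, CXCL1, INHBE, NFKB2, TNFRSF1B, FOSL1, TNFRSF12A, JAG1, CREB3L2 and SRSF1, were not called and had log2 fold changes from -0.35 to -0.031, of which 7 had an unadjusted p under 0.05 in edgeR. Of all 1099 genes, 53% were called, 33.8% higher and 19.2% lower. For the 20 genes the shares were 55%, 30% and 25%, close to those of all genes. Their median log2 fold change stood at -0.18, beside -0.13 over all genes. The TPM of the groups did not overlap in 16 of the 20 genes, 6 higher and 10 lower, and in 76.4% of all genes, 32.2% higher and 44.2% lower.

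**Figure D1:**
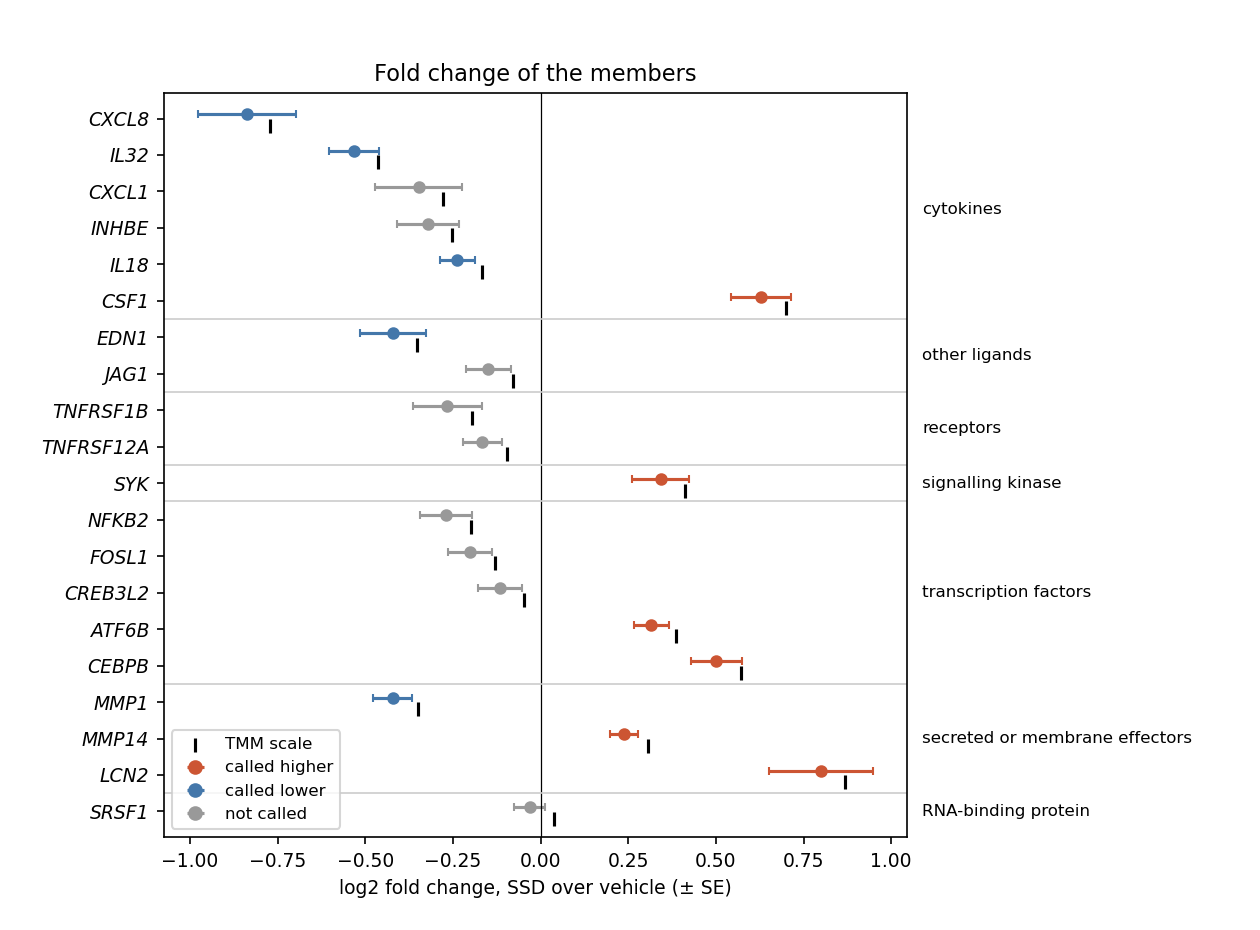
Log2 fold change of the 20 genes, SSD over vehicle, with its standard error (circles with bars, edgeR on the counts-to-TPM scale) and on the TMM scale (black ticks), grouped by role. All 6 genes to the right of 0 were called higher, and CXCL8 at -0.84 and LCN2 at 0.80 lie farthest out. SRSF1 is the one gene whose sign differs between the scales, at -0.031 and 0.039.

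Most of these changes were modest. A change of at least 1.5-fold and a call were found together in 3 genes, LCN2, CSF1 and CXCL8, where 3.46% of the table rose and 3.64% fell by that much. The split between directions moved with the scale: with TMM factors 385 genes of the table were called higher and 87 lower (35% and 7.92%, together 42.9%), against 372 and 211, and 6 of the 20 genes were higher and 3 lower, EDN1 (adjusted p = 0.0608 by edgeR) and IL18 (adjusted p = 0.0747) being lost. No gene of the table lay between log2 fold changes of -0.031 and 0.21, the gap that the selection left, and SRSF1 was the gene at its lower edge. The gap is not centred on 0 on this scale, so that calls of genes with negative changes depend on the scale. With TMM factors the median of the table moved further up, from -0.13 to -0.065. Why the gap lies off 0 was not tested. The table's counts also moved when single libraries were left out. Without vehicle replicate 2, vehicle replicate 3 and SSD replicate 2, 77, 98 and 81 genes were lower, and 3 of the 20 genes in each case. Without vehicle replicate 1, SSD replicate 1 and SSD replicate 3 they were 175, 192 and 280, and 5, 6 and 7 of the 20 genes. A fit without a library also has less power.

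**Figure D2:**
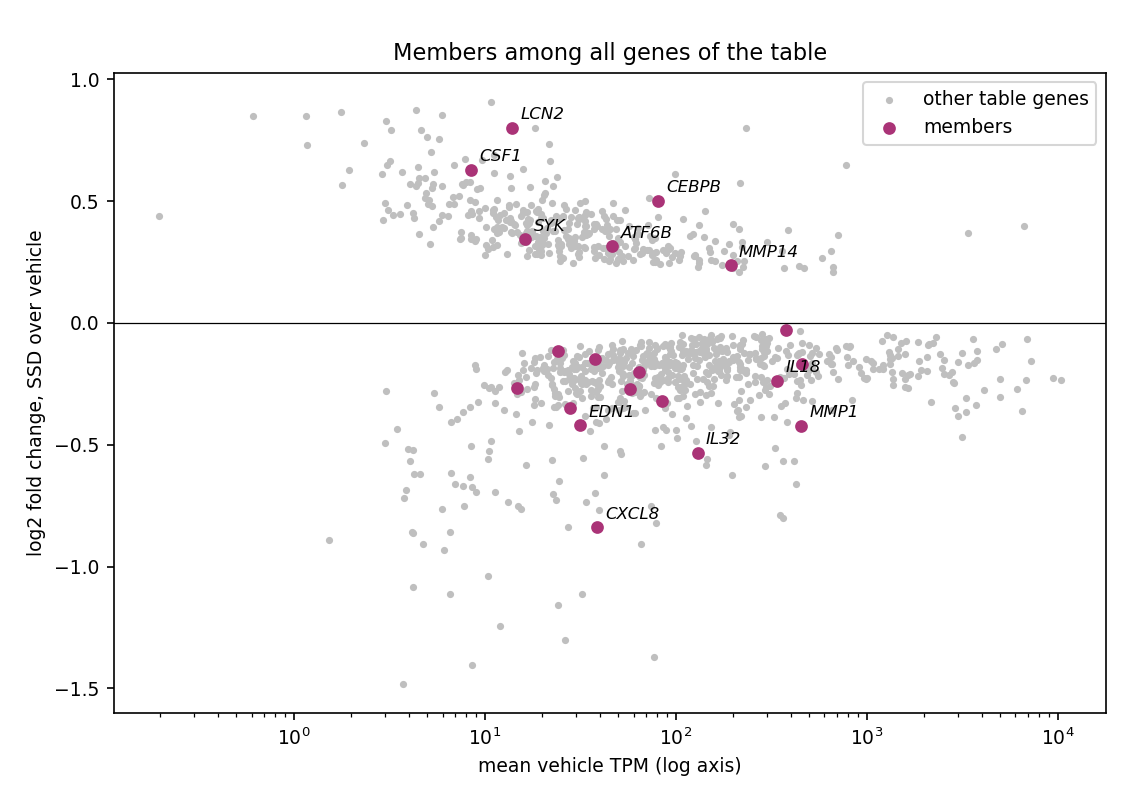
Log2 fold change against the mean vehicle TPM (log axis) for the 20 genes (large points, called ones named) and the other genes of the table (small points). The band without genes between -0.031 and 0.21 comes from the selection by p and is not centred on 0. CXCL8 lies among the low outer points, with 17 genes of the table below it.

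Both chemokines attract neutrophils through the receptor CXCR2, and CXCL8 (interleukin-8) also binds CXCR1. Their genes lie on the plus strand of chromosome 4, CXCL8 (ENSG00000169429) from 73740506 to 73743716 and CXCL1 (ENSG00000163739) from 73869393 to 73871242 in GENCODE release 29 (GRCh38), 126 kb apart. The stretches upstream of their starts are shown because both are textbook NF-kappa B targets, of which CXCL8 was called lower and CXCL1 was not called. They are from RefSeq (GRCh38.p14, plus strand, without bases that GENCODE places in an exon), at chr4:73740319-73740505 and chr4:73869143-73869392, and capitals mark the motif matches described later.
CXCL8: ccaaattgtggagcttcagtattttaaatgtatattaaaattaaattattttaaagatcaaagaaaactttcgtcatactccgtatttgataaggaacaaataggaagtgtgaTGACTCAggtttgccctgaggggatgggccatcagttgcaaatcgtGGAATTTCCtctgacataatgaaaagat
CXCL1: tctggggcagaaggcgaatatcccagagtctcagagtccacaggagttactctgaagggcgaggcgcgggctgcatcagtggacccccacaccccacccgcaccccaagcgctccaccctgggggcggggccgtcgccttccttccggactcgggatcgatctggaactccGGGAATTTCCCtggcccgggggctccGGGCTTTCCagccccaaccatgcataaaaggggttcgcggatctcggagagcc
Counting the last base before the RefSeq start as -1, the run GGAATTTCC stands in both, at -91 to -83 in CXCL8 and at -78 to -70 in CXCL1. CXCL8 also has TGACTCA, an AP-1 match, at -137 to -131, and CXCL1 has the additional match GGGCTTTCC at -53 to -45.

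CXCL8 fell by 0.84 on the log2 scale (SE 0.140, edgeR adjusted p = 0.00641), to 0.559 of the vehicle level. Its TPM was 38.8, 38.0 and 38.8 in the vehicle libraries and 16.9, 20.3 and 28.1 in the SSD libraries. Each SSD library lay lower than every vehicle library, but they spread far more widely, with a standard deviation of 5.73 TPM against 0.451 (n = 3 each). Without SSD replicate 3 the change came to -1.06 and without SSD replicate 1 to -0.69, the ends of the leave-one-out range, and the gene was called in all 16 other settings. These settings are not all checks of a call, here and for the genes below. The filter on low counts removed no gene, so the setting without it repeats the main fit. Adjustment over the table alone cannot lose a call.

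CXCL1 had the largest change among the genes not called, of -0.35 on the log2 scale (SE 0.125, edgeR adjusted p = 0.238). Vehicle libraries had 26.9, 25.1 and 31.6 TPM and SSD libraries 21.5, 19.3 and 24.6 TPM. The groups did not overlap, as in 76.4% of the genes of the table, but SSD replicate 3 came close to vehicle replicate 2. It was called only when p-values were adjusted over the table alone (edgeR adjusted p = 0.0232). Reads of CXCL1 could be shared with its close relatives CXCL2 and CXCL3, and it has 1 annotated pseudogene copy. A test of the difference between the changes of the 2 chemokines was not run.

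IL32, a cytokine of lymphocytes and epithelia that induces other inflammatory cytokines, fell by 0.53 on the log2 scale (SE 0.0722, edgeR adjusted p = 0.00307). It had 136, 130 and 123 TPM in the vehicle libraries against 85.3, 96.2 and 96.3 TPM with SSD. No SSD library reached the vehicle range, and the call held in all 16 other settings. IL18, an IL-1 family cytokine that epithelia store as a precursor, was the most abundant of the cytokines. Its vehicle libraries had 354, 334 and 333 TPM and its SSD libraries 276, 298 and 296 TPM, also without overlap. IL18 fell by 0.24 on the log2 scale (SE 0.0504, edgeR adjusted p = 0.0176), and the call was lost in 10 of 16 settings. Among them were the fits without vehicle replicate 1, 2 or 3 or SSD replicate 2, with adjusted p of 0.0717, 0.0709, 0.0521 and 0.0645 by edgeR.

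CSF1, the growth factor of macrophages, was the only one of the 6 cytokines called higher. It had 8.43, 8.11 and 8.71 TPM in the vehicle libraries against 14.7, 13.5 and 16.7 TPM with SSD, the lowest vehicle level of all 20 genes. It rose by 0.63 on the log2 scale (SE 0.0866, edgeR adjusted p = 0.0031), a 1.55-fold rise that was called in all 16 other settings, with a leave-one-out range of 0.59 to 0.69. INHBE, a TGF-beta family gene that encodes the inhibin beta E subunit, had 78.4, 85.8 and 89.6 TPM in the vehicle libraries against 67.9, 69.3 and 77.5 TPM with SSD. The TPM did not overlap, but the scaled counts did. Its log2 fold change of -0.32 was not called (adjusted p = 0.0701 by edgeR), and it was called without vehicle replicate 1 (adjusted p = 0.0336), without SSD replicate 3 (adjusted p = 0.00483) and by the DESeq2 Wald test (adjusted p = 0.0111). The cytokine group thus held 1 gene called higher, 3 called lower and 2 not called.

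**Figure D3:**
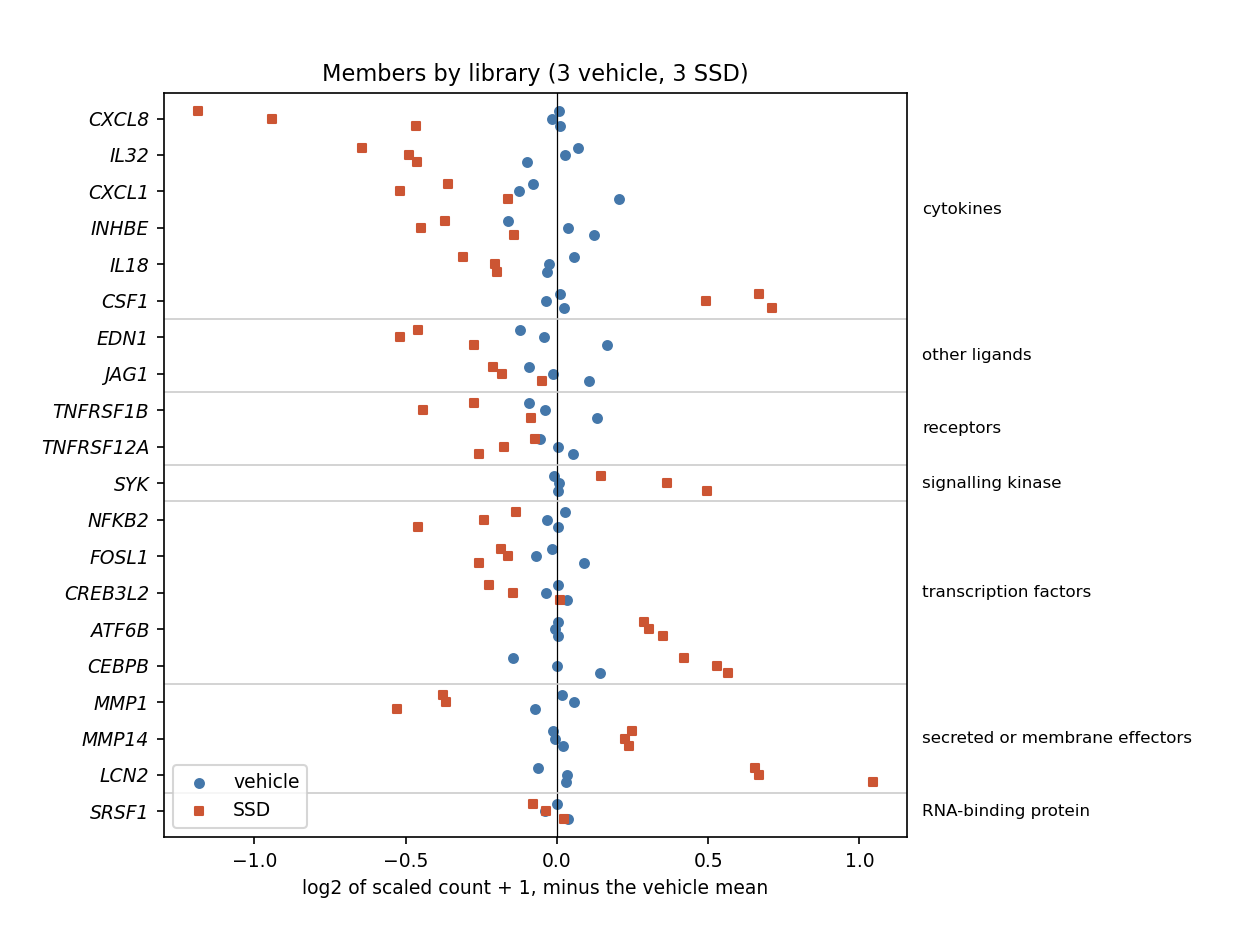
Scaled count of each of the 20 genes in each library, as log2 of the count + 1 minus the mean of the 3 vehicle libraries, with circles for vehicle and squares for SSD. The vehicle libraries of CXCL8 lie on top of each other while its SSD libraries spread out, and those of CREB3L2 and SRSF1 overlap between the groups.

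Of the remaining ligands, EDN1 encodes endothelin-1, a peptide that constricts blood vessels and acts as a growth signal. Its TPM was 28.8, 30.5 and 35.2 under vehicle and 22.7, 21.9 and 25.96 under SSD, without overlap. It fell by 0.42 on that scale (SE 0.0932, edgeR adjusted p = 0.022), and it was lost without vehicle replicate 2 or 3 and without SSD replicate 1 or 2, with adjusted p of 0.0665, 0.10, 0.0625 and 0.125 by edgeR. JAG1, a membrane ligand of Notch receptors, had 34.7 to 40.3 TPM under vehicle and 31.8 to 35.9 TPM under SSD. These ranges overlapped, and the log2 fold change of -0.15 was not called (adjusted p = 0.465 by edgeR).

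Neither receptor was called. TNFRSF12A, the receptor of TWEAK (Fn14), was with MMP1 the most abundant of the 20 genes under vehicle, at 460, 446 and 463 TPM against 429, 399 and 425 TPM under SSD. The groups did not overlap, the log2 fold change was -0.17 (adjusted p = 0.173 by edgeR), and the gene was called without SSD replicate 1 (-0.22, adjusted p = 0.0422). An exon of CLDN6 lies on the opposite strand over it. TNFRSF1B, the type 2 TNF receptor, stood at 13.7, 14.4 and 16.1 TPM in the vehicle libraries against 12, 10.7 and 13.8 TPM with SSD. SSD replicate 3 fell inside the vehicle range, and the log2 fold change of -0.27 (adjusted p = 0.267 by edgeR) was called only when that library was left out (-0.36, adjusted p = 0.0322) or when p-values were adjusted over the table alone.

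SYK, a tyrosine kinase known from immune receptors and also made in epithelia, had 17.3, 15.6 and 15.95 TPM in the vehicle libraries against 20.9, 20.7 and 23.7 TPM with SSD. All SSD libraries lay above all vehicle libraries. SYK rose by 0.34 on the log2 scale (SE 0.0821, edgeR adjusted p = 0.0337). The call was lost in 8 of 16 settings, among them the fits without vehicle replicate 1, 2 or 3 or SSD replicate 2 or 3, with adjusted p of 0.112, 0.115, 0.110, 0.138 and 0.0593 by edgeR.

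The 5 transcription factors did not move as a block, with 2 called higher and 3 not called. CEBPB, the C/EBP-beta factor of IL-17 and acute phase responses, rose from 72.2, 79.9 and 88.2 TPM to 107, 115 and 118 TPM, with no overlap. The rise was 0.50 on the log2 scale (SE 0.0726, edgeR adjusted p = 0.00355), called in all 16 other settings. CEBPB-AS1 overlaps its exon on the opposite strand. ATF6B, a membrane-bound factor of the ATF6 family that the annotation lists under TNF signaling, had 46.9, 44.8 and 47.9 TPM in the vehicle libraries against 70.2, 52.7 and 55.8 TPM with SSD. SSD replicate 1 stood apart in TPM but not in scaled counts, which were 1471, 1488 and 1537 in the SSD libraries against 1198 to 1207 under vehicle. From counts the gene rose by 0.32 on the log2 scale (SE 0.0496, edgeR adjusted p = 0.00503), and limma on log2(TPM + 1) gave 0.34 without a call (adjusted p = 0.179). TNXB shares exonic bases with ATF6B on the same strand.

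NFKB2 encodes p100, the precursor of the p52 subunit of NF-kappa B, and was the only one of the 5 genes for NF-kappa B subunits in the table. It had 59.9, 54.9 and 58.4 TPM in the vehicle libraries against 53.0, 47.8 and 38.7 TPM with SSD. The groups did not overlap, with a log2 change of -0.27 (SE 0.0749, edgeR adjusted p = 0.0715). It was called without SSD replicate 1 (-0.34, adjusted p = 0.0159) and by the DESeq2 Wald test (adjusted p = 0.0257). FOSL1, the AP-1 subunit Fra-1, ranged from 60.5 to 67.2 TPM under vehicle and from 54.9 to 57.6 TPM under SSD, and its log2 fold change was -0.20 (adjusted p = 0.125 by edgeR). CREB3L2, a membrane-bound factor of the CREB3 family, ranged from 23.4 to 24.6 and from 20.8 to 24.2 TPM, and overlapped (log2 fold change -0.12, adjusted p = 0.979 by edgeR).

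LCN2, lipocalin 2, binds bacterial siderophores and is a classical epithelial target of IL-17. It had the largest rise of the 20 genes and ranked 8 from the top of the table. Vehicle libraries had 13.71, 14.03 and 13.98 TPM, and SSD libraries 22.7, 21.9 and 28.5 TPM. The vehicle libraries were nearly level and all SSD libraries lay above them, with SSD replicate 3 the highest. On the log2 scale the rise was 0.80 (SE 0.149, edgeR adjusted p = 0.00926), a 1.74-fold rise. Without SSD replicate 3 the rise was 0.66, the low end of the leave-one-out range. With a mean of 125 counts per library, the lowest of the 20 genes, counting error alone is 8.95%, and the call was lost by a small margin without vehicle replicate 2 (0.82, adjusted p = 0.0536). The stretch before its RefSeq start (GRCh38.p14, plus strand, chr9:128149265-128149440) is shown beside those of the chemokines. Like the stretch of CXCL8, which was called lower, it holds a kappa B form and an AP-1 match. The kappa B form is the consensus in LCN2 and the shorter one in CXCL8. Neither chemokine window holds a C/EBP match.
LCN2: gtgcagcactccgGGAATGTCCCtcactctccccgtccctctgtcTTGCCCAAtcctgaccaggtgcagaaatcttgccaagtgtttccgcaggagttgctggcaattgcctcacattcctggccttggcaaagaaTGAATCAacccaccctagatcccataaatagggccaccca
Its capitals mark matches to the kappa B consensus (GGAATGTCCC), to C/EBP (TTGCCCAA) and to AP-1 (TGAATCA). Outside this stretch the search found no further match in the window of LCN2.

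The metalloproteinases split in direction. MMP1, the interstitial collagenase that the annotation lists under IL-17 signaling, had 459, 472 and 431 TPM in the vehicle libraries against 348, 351 and 315 TPM with SSD. The groups were well apart, and the change of -0.42 on the log2 scale (SE 0.0549, edgeR adjusted p = 0.00256) was called in all 16 other settings, from -0.46 to -0.37 with each library left out. WTAPP1 overlaps an exon of MMP1 on the opposite strand. MMP14, a membrane-type metalloproteinase that activates MMP2, had 213, 181 and 186 TPM in the vehicle libraries against 236, 230 and 224 TPM with SSD. MMP14 rose by 0.24 on the log2 scale (SE 0.0393, edgeR adjusted p = 0.00641). Vehicle replicate 1 was high in TPM but not in scaled counts, which ran from 5192 to 5317 under vehicle and from 6129 to 6228 under SSD, and limma on log2(TPM + 1) did not call the gene (0.25, adjusted p = 0.112).

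SRSF1, a splicing factor that the annotation places in IL-17 signaling as well as in the spliceosome, is known to act on cytokine mRNAs. It had 363, 376 and 389 TPM in the vehicle libraries against 331, 344 and 369 TPM with SSD, with overlap, and a log2 fold change of -0.031 (edgeR adjusted p = 1), which became 0.039 with TMM factors. Like every gene of the table, SRSF1 had passed the authors' selection by p, so that its reading turns on the test and the scale.

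**Figure D4:**
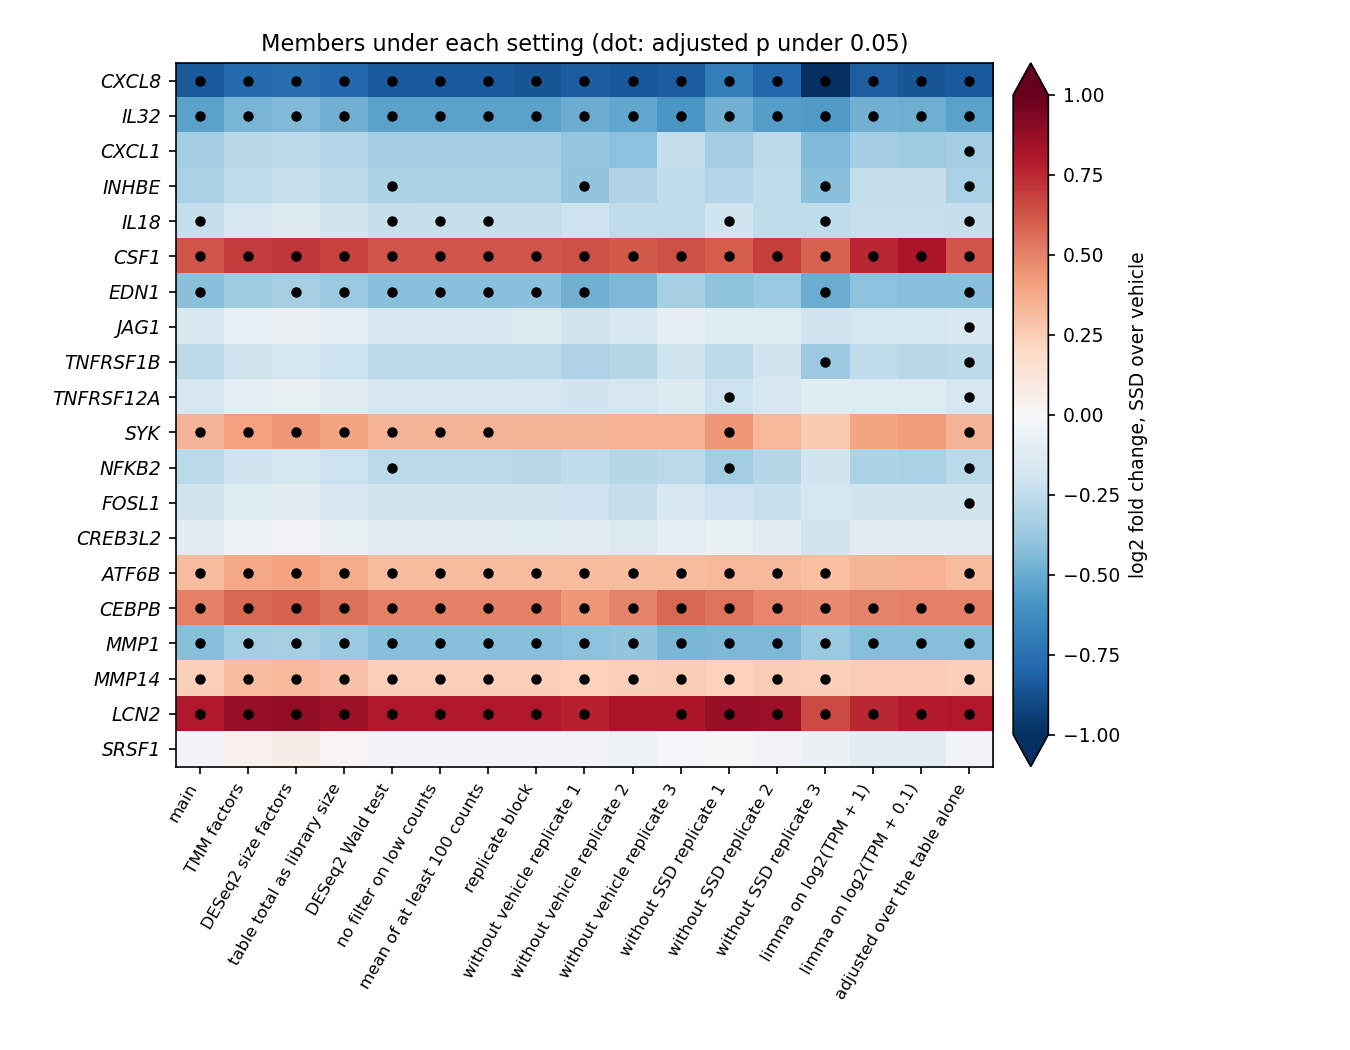
Log2 fold change (colour, blue for lower and red for higher under SSD) of the 20 genes under the main fit and 16 other settings, with a dot where the adjusted p was under 0.05. CXCL8, IL32, CSF1, CEBPB and MMP1 carry a dot in every column, whereas SYK, IL18 and EDN1 lose it in several.

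By pathway, cytokine-cytokine receptor interaction had 8 of the genes, of which 1 was called higher and 3 lower, with a median log2 fold change of -0.29. TNF signaling had 9, with 4 called higher (CSF1, CEBPB, ATF6B and MMP14) and 1 lower (EDN1), and a median of -0.12. The 7 genes of IL-17 signaling were divided evenly, with LCN2 and CEBPB higher and CXCL8 and MMP1 lower, and NF-kappa B signaling had 4 genes with SYK higher and CXCL8 lower. CXCL1 is in all 4 pathways and CXCL8 in 3, so that these counts are not independent. Of all genes of the table, 33.8% were called higher and 19.2% lower. Groups of 4 to 9 genes are too small to set apart from these shares, and no direction is read for a pathway. The only gene called lower in TNF signaling was EDN1, and the only one called higher in NF-kappa B signaling was SYK. Both genes lost their call in the settings named with their values, EDN1 also with TMM factors.

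The pathway rule did not use the gene ontology term for the extracellular region or space, which 12 of the 20 genes carry. All the cytokines carry it, so that the term is not independent of the pathways. Of these 12, 3 were called higher and 5 lower, with a median log2 fold change of -0.29. The 8 genes without the term had 3 called higher and 0 lower by edgeR. Among all 115 genes of the table with the term, 46 were called higher and 26 lower, with a median of -0.11. The table as a whole had 33.8% called higher and 19.2% lower. Groups of 8 and 12 genes are too small to set apart from such shares. A difference between members with and without the term was not tested, and none is read from these counts. Between libraries, the median of the 20 genes lay at -0.20, -0.18 and -0.11 in SSD replicates 1 to 3 against the vehicle mean, and between -0.02 and 0.03 in the vehicle libraries. The same median over the table was -0.14, -0.13 and -0.09 in the SSD libraries.

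Promoter windows from RefSeq, 250 bases before to 50 after each annotated start, were found for 14 of the 20 genes (23 windows). CSF1, FOSL1, IL18, INHBE, MMP1 and TNFRSF12A had none. Both strands were searched for the kappa B consensus of NF-kappa B, a shorter kappa B form GGNNTTTCC, the AP-1 motif TGANTCA, the C/EBP motif TTGCNNAA and the gamma-activated sequence TTCNNNGAA, and the first pair can overlap at the same bases. The kappa B consensus was in 7 of the 23 windows (30.4%) and in 11.3% of all 35116 windows of that length. GGNNTTTCC was in 6 (26.1%) against 6.26%, AP-1 in 3 (13%) against 7.71% and C/EBP in 5 (21.7%) against 10.5%. The gamma-activated sequence was in 0 of them and in 7.66% of all windows. These windows belong to few genes, some genes have several, and windows of SYK and of CEBPB overlap each other.

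Matches to either kappa B form stood before genes of both directions: CXCL8 and IL32, which fell, LCN2, CEBPB, ATF6B and SYK, which rose, and CXCL1 and NFKB2, which were not called. In CEBPB the overlapping matches GGGGGCCCCC and GGGGCCCCCC lie in a run of G and C. A match is a description of the letters, and binding was not measured here.

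**Figure D5:**
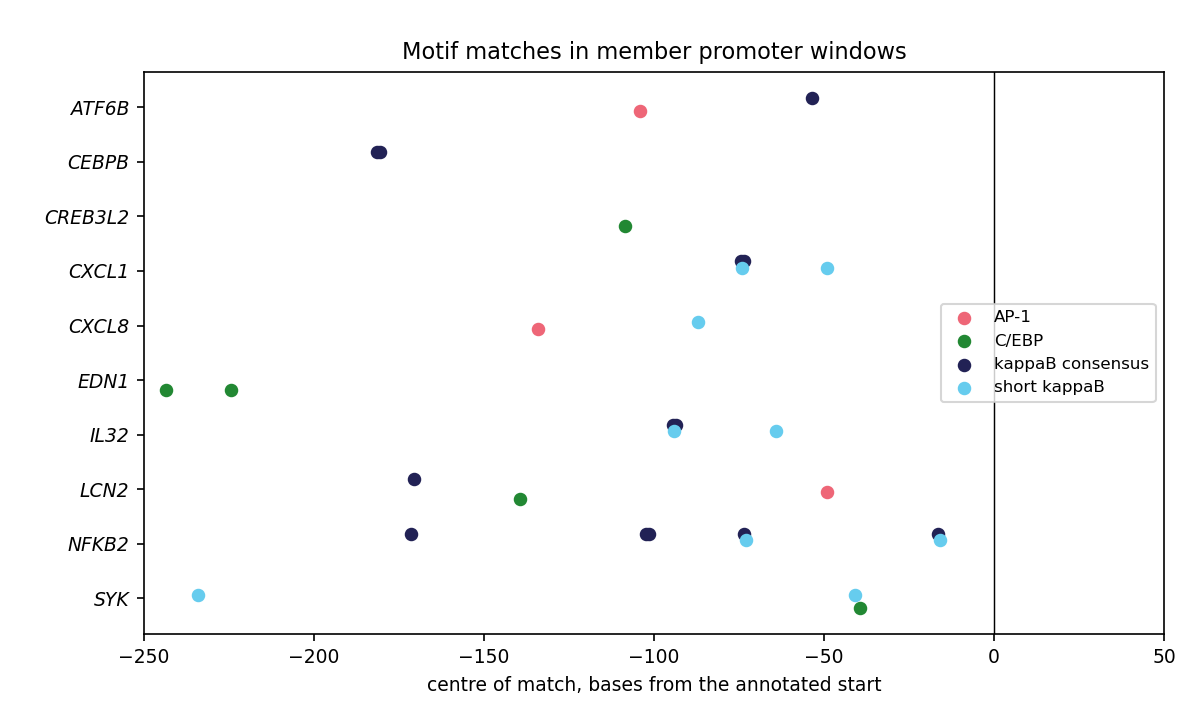
Centres of motif matches, in bases from the RefSeq start (0), for the 10 genes with any match, with 1 colour per motif. The kappa B matches of CXCL8, CXCL1, IL32, NFKB2, SYK and ATF6B include one in the last 100 bases before the start, and windows of genes with several starts are drawn on top of each other.

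Other genes of these signalling routes were read from lists of 236 names, of which the table holds 26, 15 of them among the 20 genes. The names of 17 TNF receptor adaptors and of 25 cytokine receptors had no gene in the table and were not analysed here. Among the others, the signalling genes STAT2, STAT6, JAK1 and JAK2, which act below cytokine receptors, were called higher, with log2 fold changes of 0.56, 0.31, 0.25 and 0.57 (edgeR adjusted p = 0.00769, 0.00769, 0.0284 and 0.0464). Of all genes of the table, 33.8% were called higher, and no direction is read for this group of signalling genes. JAK2 was low, with library values from 1.59 to 3.33 TPM, and its adjusted p lay just under the limit. Its scaled count was 174 in SSD replicate 1, not far above the 160 of vehicle replicate 1. Calls of these genes in the 16 other settings are not given here. SOCS2, a feedback inhibitor of cytokine receptors, was not called (-0.12, adjusted p = 0.314 by edgeR).

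PLK2, a polo-like kinase induced by stress, fell by 0.25 on the log2 scale (adjusted p = 0.0103 by edgeR), from 107, 110 and 115 TPM to 92.2, 89.3 and 96.4 TPM. PLK2 is on a list of TNF and NF-kappa B targets that also holds MMP14, called higher, and EDN1, called lower. The remaining genes of that list in the table were not called by edgeR. They were IER3 at -0.21 (adjusted p = 0.0618), CFLAR at -0.16 (adjusted p = 0.178) and PTGS2 at -0.34 (adjusted p = 0.330). PTGS2 encodes cyclooxygenase-2 and carries no pathway in the table. NFKBIB, an inhibitor that holds NF-kappa B in the cytoplasm, stood at -0.23 (adjusted p = 0.158 by edgeR). Of the 2 other genes set aside by the rule, MAP2K6 was higher at 0.85 (adjusted p = 0.0183) and DDX58, an RNA sensor, at 0.49 (adjusted p = 0.00218), both by edgeR.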

How the data were processed

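PolyA RNA of 6 AGS libraries was sequenced, and 1 table of the series was analysed. Its estimated counts were made by the authors with an online service (aligner and counter not given in the sources used here; build GRCh38.p13 in the submitters' processing notes), and 33.5% are not whole. TPM values are as deposited and were normalized within whole libraries. Columns with the authors' own fold changes were not used. The deposited p-values and adjusted p-values served only to find that 11289 genes were tested, that the table was cut by p, and at which value.

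Columns were assigned to samples by name (control, or part of the compound code for the treated arm, and replicate number). Counts were rounded, genes with at least 10 counts in 3 libraries were kept (all 1099, and all 20 genes described), and libraries were scaled by the median ratio of counts to TPM over 795 genes with at least 20 TPM in each library. This scale reflects whole libraries, whereas TMM assumes that most genes of a table are unchanged. The test was edgeR 4.0.16's quasi-likelihood test in R 4.3.3, adjusted by Benjamini-Hochberg over 11289 genes counting genes outside the table as ranked after it, called under 0.05. Standard errors are the log2 fold change over the root of F. The common biological coefficient of variation was 5.44%. It comes from the genes of the table alone, which were selected by p in the same libraries, and may be too low. How far this affects the calls was not tested. An exact two-sided permutation test on TPM cannot give a p below 0.1 with 3 against 3, which is its value for each gene whose groups do not overlap.

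Alternatives were other scales, DESeq2 1.42.0, other filters, limma 3.58.1 on log2 TPM with a pseudocount of 1 or 0.1, a replicate block, leaving out libraries singly, and adjustment over the table alone. The code was tested on simulated data. Genes were named by rule: all 20, with values in every library for LCN2, for called genes and for the largest change not called. Values in every library of other members were added after seeing the data. The members and lists were chosen with earlier results of these data known. Coordinates came from GENCODE 29 and promoters from RefSeq (GRCh38.p14), and strand use in counting is not given in the sources used here. Results for 1 item of the lists are not reported here.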

Additional observations from a re-analysis of the deposited data

How the results depend on the processing

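Over the 20 genes and 16 other settings, 273 of 320 log2 fold changes kept direction and side of the threshold, 30 lost the call and 14 gained it. The setting without a filter on low counts repeats the main fit, and adjustment over the table alone cannot lose a call. The count of 273 therefore includes values whose outcome was fixed. The 3 that changed sign were those of SRSF1, at 0.039 with TMM factors, 0.059 with DESeq2 size factors and 0.021 with the table total as library size, against -0.031. CXCL8, IL32, CSF1, CEBPB and MMP1 were called in every setting. Of the 20 genes, 6 higher and 5 lower became 3 and 3 with limma at either pseudocount, 3 were lower with TMM factors, and 12 were lower when adjusted over the table alone. With libraries left out in turn they ranged from 4 to 6 higher and from 3 to 7 lower. The median of the 20 genes was -0.11 with TMM factors, -0.093 with DESeq2 size factors and -0.13 with the table total, against -0.18, and these scales move all genes alike. Over the table, 372 higher and 211 lower became 385 and 87 with TMM factors, 86 lower with DESeq2 size factors, 126 lower with the table total, and 576 lower adjusted over the table alone. With limma on log2(TPM + 1) they were 114 and 75, and on log2(TPM + 0.1) 115 and 73. Of the calls, 63.8% were of higher genes, 81.6% with TMM factors and 40.2% adjusted over the table alone. With libraries left out in turn, 175 to 382 genes were higher and 77 to 280 lower. The replicate block gave 185 and 88 in the table and 5 and 4 among the 20 genes (SYK and IL18 lost). Deviations of same-numbered libraries correlated at -0.23, -0.010 and -0.032, and those of differently numbered libraries at -0.21 to 0.24. These values show no pairing by number, and whether same-numbered libraries share a culture or batch is not known. The cause of the differences between settings was not tested. LCN2, with the fewest counts of the 20 genes, had the largest standard error.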
